A study of Mus musculus with 16 samples.

Results

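The 8 AP-1 genes, *Batf*, *Batf3*, *Jun*, *Junb*, *Jund*, *Fosb*, *Fosl2* and *Atf3*, were examined in single light zone (LZ) germinal center (GC) B cells. They were taken by symbol from the gene list of the count matrix, where each symbol has 1 entry, and they are 8 of its 56691 genes. The rule itself used no measured value, though the genes were picked with earlier results of these data known. The matrix holds 637 cells from 8 host mice. Donor B cells carried the B1-8hi knock-in, a heavy chain of the B cell receptor (BCR). Paired with a lambda light chain, it binds the hapten NP strongly. These B cells were transferred into male hosts that had been primed with ovalbumin at 6 to 8 weeks of age. The draining lymph nodes were taken 7 days after a boost with NP-coupled ovalbumin. Each host received a mixture of BTKC481S donor cells, whose BTK kinase is not blocked by the inhibitor, and BTKWT donor cells, whose kinase is. The 5 hosts coded A (A7, A8, A10, A11 and A12) were given a low oral dose of the BTK inhibitor acalabrutinib at 0, 6 and 12 h and 3 hosts (V5, V7 and V9) were given vehicle, and cells were sorted at 14 h. The labels describe 16 samples, 1 for each genotype in each host, but the name of a cell gives host, plate and well and no genotype, so the genotypes were not compared and both are pooled in every value of a host. BTKC481S cells therefore also make up a share of the cells in each acalabrutinib host.

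AP-1 is a dimer of basic leucine zipper proteins. JUN, JUNB and JUND can pair among themselves or with partners of the FOS, ATF and BATF families, and the dimers bind the palindromic AP-1 site or the related cyclic AMP response element. BATF and BATF3 lack the long activation domains of FOS proteins. BATF pairs with JUN proteins and, together with IRF4 or IRF8, occupies composite elements in activated lymphocytes, and B cells need it for class switching. In the GC, *Myc* is induced for a short time in LZ cells that have received T cell help, and IRF4 acts in positively selected cells and in plasma cell differentiation. These are background facts and not results of these data.

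*Junb* and *Batf* had the highest levels of the 8 genes, and their 5′ flanks are shown because the results below turn on them. *Jun* is shown beside them as the family member with another AP-1-type match. The sequences are the 250 bases before the RefSeq start site in GRCm38.p6, written 5′ to 3′ on the strand of the gene. Capitals mark TGACG, the core of the cyclic AMP response element, in *Batf* and *Junb*, and TGACATCA in *Jun*. They are *Batf* at chr12:85686470-85686719 on the plus strand, *Junb* at chr8:84978749-84978998 on the minus strand and *Jun* at chr4:95052223-95052472 on the minus strand.
Batf: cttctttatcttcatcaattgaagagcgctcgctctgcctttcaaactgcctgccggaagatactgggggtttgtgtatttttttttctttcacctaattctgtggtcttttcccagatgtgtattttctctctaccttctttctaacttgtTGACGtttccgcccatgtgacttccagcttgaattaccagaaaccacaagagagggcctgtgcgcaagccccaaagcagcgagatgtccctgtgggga
Junb: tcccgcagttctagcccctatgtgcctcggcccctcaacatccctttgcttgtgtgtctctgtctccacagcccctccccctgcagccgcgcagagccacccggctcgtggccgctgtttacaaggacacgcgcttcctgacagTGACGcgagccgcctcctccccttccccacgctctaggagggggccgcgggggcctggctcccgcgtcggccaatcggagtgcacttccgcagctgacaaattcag
Jun: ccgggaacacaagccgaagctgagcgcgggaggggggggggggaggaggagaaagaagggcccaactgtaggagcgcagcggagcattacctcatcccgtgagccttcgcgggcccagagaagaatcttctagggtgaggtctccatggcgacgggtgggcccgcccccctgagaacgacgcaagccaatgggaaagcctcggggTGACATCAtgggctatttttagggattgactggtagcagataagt

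A set of 5 motifs was searched on both strands in the window from 250 bases before to 50 bases after the start site, in the first RefSeq promoter of each of 27025 symbols. The full AP-1 site TGANTCA was in 7.93% of these promoters and in none of the 8 members, and TGACGTCA was in 1.88% and also in none. TGACG, which TGACGTCA contains, was in 21.0% of promoters and in 4 members, *Batf*, *Junb*, *Fosb* and *Atf3*. TGACATCA was in 3.76% and in *Jun*, and the E-box CACGTG was in 7.24% and in *Batf3*. A match describes the letters of this window and shows no binding.

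The cells carried 132412 to 1825420 counts, with a median of 789357, and 1801 to 7224 genes, and 0 of the 637 cells had the same counts as another cell. They came from 15 plates. *Cd74* and *Cd79a*, which mark B cells, had counts in 637 and 634 cells. The 8 T cell markers had counts in 1 cell (*Cd3e*) to 77 cells (*Cd28*), with *Trac* in 17 and *Cd4* in 13. Of the 8 macrophage and monocyte markers, *Adgre1* had counts in 243 cells, *Mrc1* in 100 and *Cd68* in 58, and the other 5 in 0 (*Itgam*) to 14 (*Csf1r*). Cells came from 2 experiments, and which host belongs to which is not given in the sources used here, so experiment could not enter a fit. The host is the replicate throughout.

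*Junb* was the most widely detected member, with a count in 264 of the 637 cells (41.4%). Among hosts the lowest share was 33.7%, in host A8, and the highest 51.9%, in host A10 (mean 41.2% ± 6.46, SD, n = 8 hosts). *Batf* had a count in 104 cells (16.3%), and *Jund* in 81 (12.7%). *Atf3*, a stress-induced member, had a count in 31 cells (4.87%). *Jun*, *Fosl2*, *Fosb* and *Batf3* had counts in only 11, 9, 8 and 7 cells, and each was listed at 0 in 2 or 3 hosts. *Fos*, the founding partner of JUN and no member of the group examined, had counts in 12 cells.

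The level of *Junb*, in CPM (counts scaled to the summed counts of a host), was 263 in A7, 189 in A8, 212 in A10, 234 in A11 and 156 in A12, and 205 in V5, 196 in V7 and 208 in V9. The 3 vehicle hosts lay inside the range of the 5 acalabrutinib hosts. The level of *Batf* was 26.2 CPM in A7, 16.0 in A8, 48.5 in A10, 77.0 in A11 and 34.5 in A12, and 24.7 in V5, 82.0 in V7 and 68.9 in V9. Relative to its mean, *Batf* varied more between hosts (47.2 ± 25.8 CPM, SD, n = 8) than *Junb* did (208 ± 31.4), and hosts of both treatments were found at its low and its high end. *Jund* was at 3.55 ± 2.14 CPM (SD, n = 8 hosts), with 8.59 CPM in A7 and 1.84 to 3.79 in the other 7.

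A cell with a *Batf* count usually had many. The median was 185 counts (217 CPM) among the 104 positive cells, and 13 of them had 1 to 3 counts. For *Junb* the median was 369 counts (453 CPM), and 24 of 264 positive cells had 1 to 3 counts. *Jund* and *Atf3* behaved differently. *Jund* had a median of 8 counts in its positive cells, with 33 of 81 at 1 to 3 counts, and *Atf3* had a median of 2, with 20 of 31 at 1 to 3. SMART-seq2 adds no molecular identifiers, so a count is a deduplicated read and not a molecule.

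Levels of different genes were compared per kilobase of exon, with lengths from GENCODE M21 on GRCm38, although the counts also include reads in introns. *Jun*, *Junb* and *Jund* have 1 coding exon, while *Batf* has 3 over 22419 bases. *Junb* was highest at 90.3 ± 13.6 CPM per kilobase (SD, n = 8 hosts) and *Batf* followed at 33.6 ± 18.3, and *Junb* exceeded *Batf* in 8 of 8 hosts. *Batf* exceeded *Jund* (2.13 ± 1.28) in 8 of 8. Below *Batf* no neighbours in the order separated in all hosts. *Jund* exceeded *Atf3* in 5 of 8 hosts, *Atf3* exceeded *Batf3* in 4 of 8 and *Batf3* exceeded *Jun* in 2 of 8. *Jun* (1.16 ± 1.05) exceeded *Fosb* (0.242 ± 0.351) in 6 of 8, and *Fosb* exceeded *Fosl2* in 2 of 8.

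**Figure D1:**
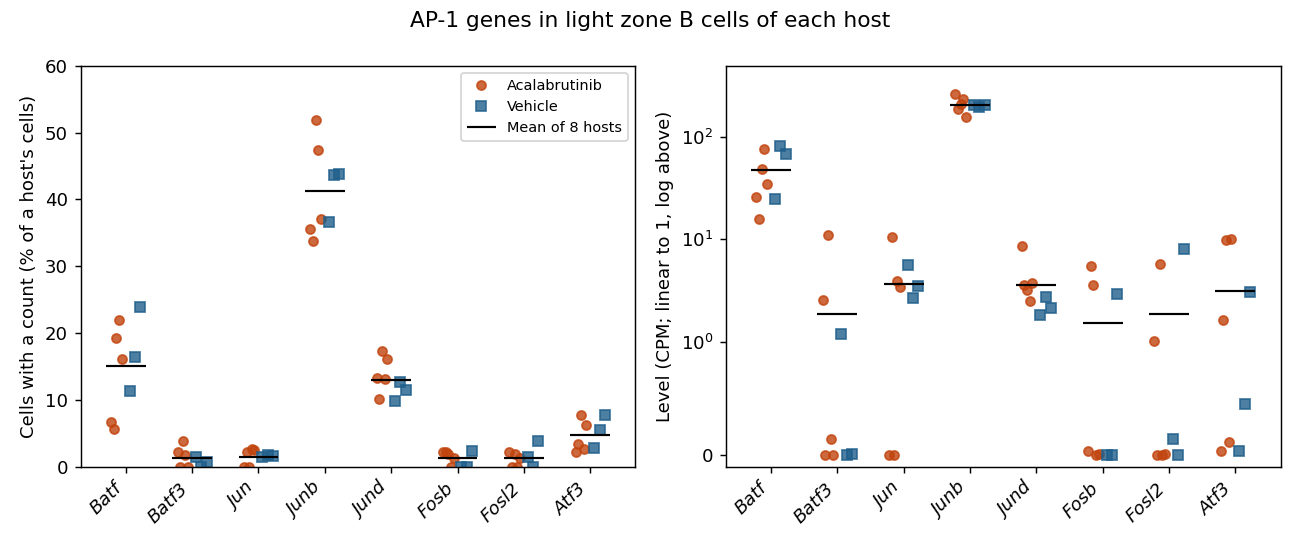
Share of cells with a count (left, percent of the cells of a host) and level (right, CPM of summed counts, linear to 1 and logarithmic above) of the 8 genes, with 1 point per host, circles for acalabrutinib, squares for vehicle and a line at the mean of 8 hosts. In level *Junb* and *Batf* stand above the other 6 genes, while in share the points of *Batf* and *Jund* overlap. The points of both treatments overlap for every gene.

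Cells were divided by whether they had a *Myc* count. *Myc* was detected in 177 of 637 cells (27.8%), from 10.9% in V7 to 43.9% in A11. *Batf* was detected in 63 of the 177 Myc-positive cells (35.6%) and in 41 of the 460 Myc-negative cells (8.91%), so 60.6% of the cells with *Batf* also had *Myc*. The level of *Batf* in Myc-positive cells was 106 CPM in A7, 54.3 in A8, 115 in A10, 140 in A11, 56.9 in A12, 73.6 in V5, 393 in V7 and 155 in V9. In Myc-negative cells it was 14.2, 8.50, 13.5, 27.0, 22.7, 9.82, 40.0 and 16.0 CPM in the same order. The lowest Myc-positive value lay above the highest Myc-negative value, and V7, with 6 Myc-positive cells, was the highest on both sides.

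*Batf* rose in Myc-positive cells, with a log2 fold change of 2.74 ± 0.36 (SE, n = 8 hosts, 95% interval 1.93 to 3.54). In edgeR's quasi-likelihood test with host as a block the adjusted p was 0.0277 (Benjamini-Hochberg over 12715 genes), and *Batf* was higher in 8 of 8 hosts. That test called 7 genes, 0.0551% of those tested, and 5 of them, 0.0393%, were higher in Myc-positive cells. *Batf* ranked 6th by p. The others that were higher are *Myc*, which defined the split, *Nfkbia*, an inhibitor of NF-κB and itself an NF-κB target (1.70 ± 0.21, adjusted p 0.0236), and *Ly75* and *Net1*, which were chosen for mention after their values were seen. The median over all genes tested was −0.42, and it was −0.024 with host not used as a block, so this median depends on the model. The call was lost, by the edgeR adjusted p, without A8, A10, A11, V5, V7 or V9 in turn. Each of those fits called 0 genes, so *Myc*, which defined the split, was not called either. Over the 8 fits with 1 host left out, the edgeR adjusted p of *Batf* was 0.0388 to 0.169. Its log2 fold change lay between 2.65 and 2.93.

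The share of cells showed the same order in every host. The share with *Batf* in Myc-positive cells was 40.0% in A7, 23.1% in A8, 43.8% in A10, 32.0% in A11, 26.9% in A12, 21.4% in V5, 50.0% in V7 and 46.8% in V9, against 2.50 to 14.1% in Myc-negative cells. The difference was 26.7 percentage points ± 10.9 (SD, n = 8 hosts), with p = 0.00781 in an exact two-sided sign-flip test, the smallest p that 8 hosts allow. Depth differed as well, since the median was 890495 counts and 4329 genes in Myc-positive cells and 751578 counts and 3800 genes in Myc-negative cells. With the cells thinned at random to 459128 counts, which drops 64 shallower cells, the share difference was 28.4 points (n = 7 hosts). The number of genes detected was not matched by thinning. Within the 14 plates with at least 5 cells on each side, the share with *Batf* was higher in Myc-positive cells in 13, and it was 0 on both sides in the other.

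*Junb* showed a smaller difference. It was detected in 99 of 177 Myc-positive cells (55.9%) and 165 of 460 Myc-negative cells (35.9%), and the share was higher in 8 of 8 hosts, by 17.8 points ± 15.4 (SD, exact sign-flip p = 0.00781). The level was 160 CPM against 278 in A7, 301 against 167 in A8, 239 against 197 in A10 and 281 against 197 in A11. It was 122 against 175 in A12, 492 against 118 in V5, 346 against 175 in V7 and 279 against 165 in V9. A7 and A12 thus had a lower level in Myc-positive cells and the groups overlapped. The log2 fold change was 0.51 ± 0.31 (SE, 95% interval −0.17 to 1.19, n = 8 hosts) and did not pass the test (edgeR adjusted p = 0.70). It was 0.29 without V5, 0.85 in G1 cells and 1.24 in vehicle hosts only. It passed in none of these fits, which called 0 genes each. Among cells with a *Junb* count the median level was 413 CPM in Myc-positive and 500 CPM in Myc-negative cells. The share was higher in Myc-positive cells in 12 of 14 plates.

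*Jund* was detected in 13.6% of Myc-positive and 12.4% of Myc-negative cells, a difference of −1.05 points ± 8.16 as the mean over hosts (exact sign-flip p = 0.703, n = 8 hosts), and its fitted log2 fold change was −2.14 ± 1.42 (edgeR adjusted p = 0.733). *Atf3* was in 6.78% and 4.13% of these cells, with a difference of 1.13 points ± 4.76 (exact sign-flip p = 0.523, n = 8 hosts). *Jun* was in 4 Myc-positive and 7 Myc-negative cells, *Fosl2* in 4 and 5, *Fosb* in 2 and 6 and *Batf3* in 2 and 5. At this depth no difference was detectable for those 4 genes. They and *Atf3* were too low to enter the fit.

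**Figure D2:**
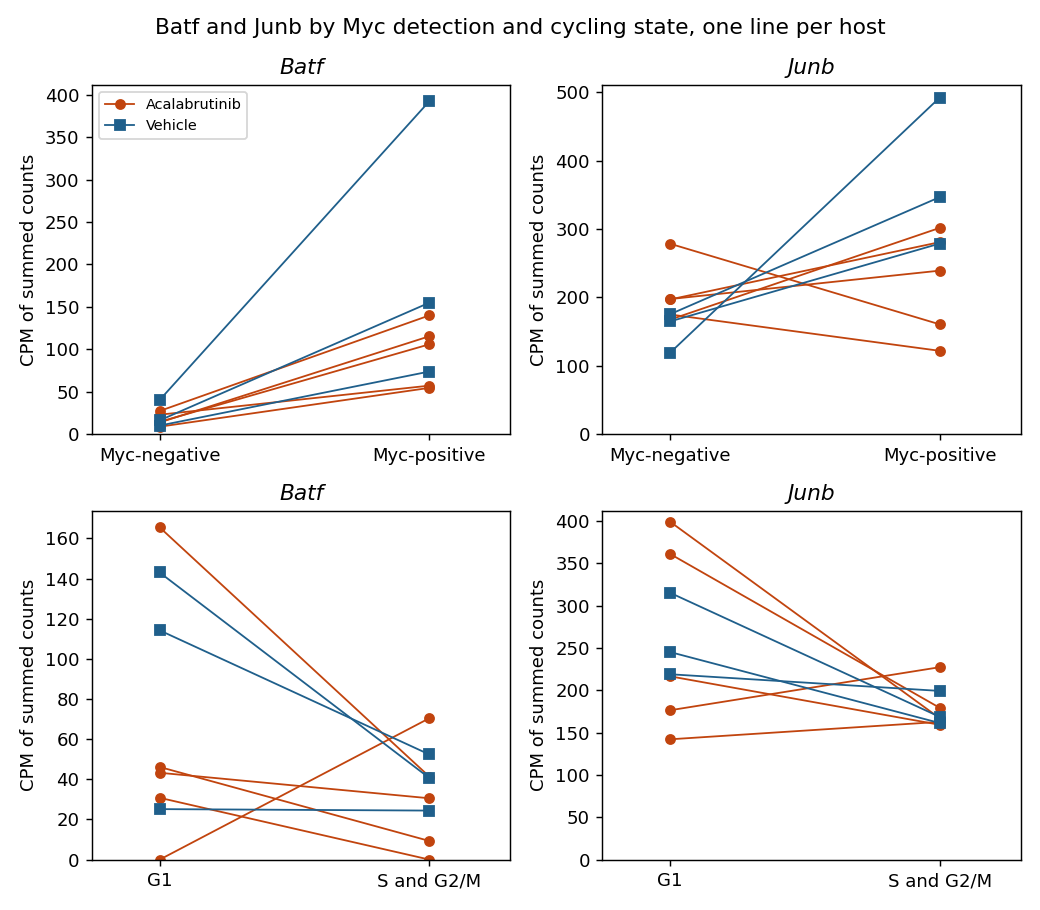
Level of *Batf* (left) and *Junb* (right) in CPM of summed counts, with 1 line per host, red circles for acalabrutinib and blue squares for vehicle. The upper panels set Myc-negative against Myc-positive cells and the lower panels G1 against S and G2/M cells. Every *Batf* line rises with *Myc*, while 2 of the 8 *Junb* lines fall.

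*Irf4*, the partner of BATF on composite elements, had counts in 63 cells (9.89%), and 4 hosts (A11, A12, V7 and V9) had at least 5 Irf4-positive cells. *Batf* was detected in 27 of 63 Irf4-positive cells (42.9%) and in 77 of 574 Irf4-negative cells (13.4%). In the 4 hosts its level was 319 against 44.5 CPM in A11, 99.7 against 21.7 in A12, 386 against 46.6 in V7 and 105 against 62.7 in V9. The Irf4-positive value was the higher one in 4 of 4 hosts and the groups did not overlap. The log2 fold change was 2.25 ± 0.49 (SE, 95% interval 1.06 to 3.44, n = 4 hosts), and it did not pass the edgeR test over 13731 genes (adjusted p = 0.527). That test called 0 genes, 0% of those tested, with 1048 at an unadjusted p under 0.05. *Irf4* itself, whose difference was fixed by the split, was thus not called. With these 4 hosts, not passing therefore does not show that a gene is unchanged. DESeq2 called 1445 genes, *Batf* among them (DESeq2 adjusted p = 0.000915). The median over all genes was −0.63 in this fit. The share with *Batf* differed by 28.7 points ± 13.3 (SD, exact sign-flip p = 0.125, the smallest that 4 hosts allow). The median was 877085 counts and 4407 genes in Irf4-positive cells, and 780817 counts and 3926 genes in Irf4-negative cells. With thinned cells the share difference was 30.85 points (n = 4 hosts). Thinning matched the counts of cells and not the number of genes detected.

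*Junb* was detected in 37 of 63 Irf4-positive cells (58.7%) and 227 of 574 Irf4-negative cells (39.5%). Its level was higher with *Irf4* in 4 of 4 hosts, at 346 against 219 CPM in A11, 167 against 154 in A12, 530 against 156 in V7 and 310 against 190 in V9. The log2 fold change was 0.83 ± 0.29 (edgeR adjusted p = 0.561, n = 4 hosts), and 0.13 ± 0.28 in S and G2/M cells only (edgeR adjusted p = 0.964). Of the hosts left out for few Irf4-positive cells, A7, A8 and V5 had 4, 4 and 1 such cells. These 3 hosts had the higher level with *Irf4* for both *Junb* and *Batf*. A10, with 4 such cells, had the lower one, at 0.279 against 233 CPM for *Junb* and 39.0 against 49.5 for *Batf*. *Jun* was in 3 of 63 Irf4-positive cells and 8 of 574 others, and *Fosb* and *Fosl2* were in 0 of the 63. For each, a count of 0 allows a share of up to 4.76%, which covers counting error only and limits the cells with a count, not the cells that express the gene.

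*Myc* and *Irf4* overlapped, with 40 cells positive for both, 137 for *Myc* alone, 23 for *Irf4* alone and 437 for neither. *Batf* was in 34 of the 437 cells with neither (7.78%, exact 95% binomial interval 5.45 to 10.7%). It was in 43 of 137 with *Myc* alone (31.4%, 23.7 to 39.9%), in 7 of 23 with *Irf4* alone (30.4%, 13.2 to 52.9%) and in 20 of 40 with both (50.0%, 33.8 to 66.2%). The intervals cover counting error only and not the spread between hosts. The classes were not matched in depth or in genes detected. *Junb* followed the order 35.0%, 54.0%, 52.2% and 62.5% over the same classes, while *Jund* was at 11.9%, 12.4%, 21.7% and 17.5%. Within Myc-positive cells, *Batf* was 1.19 ± 0.60 higher on the log2 scale with *Irf4* than without (edgeR adjusted p = 1, n = 3 hosts), an alternative chosen after the data were seen.

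**Figure D3:**
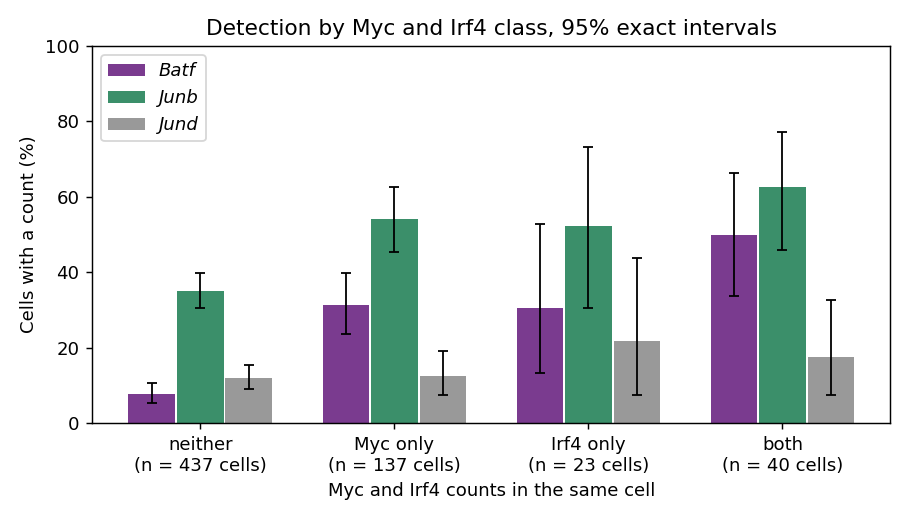
Share of cells with a *Batf*, *Junb* or *Jund* count (percent) in cells with neither *Myc* nor *Irf4*, *Myc* only, *Irf4* only or both, all hosts together, with exact 95% binomial intervals as bars. *Batf* goes from 7.78% with neither to 50.0% with both, and the interval for the 23 cells with *Irf4* only is wide.

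BATF needs a JUN family partner to bind DNA, so the members were also counted together. *Junb* was detected in 60 of the 104 Batf-positive cells (57.7%) and in 204 of the 533 Batf-negative cells (38.3%), and the share was higher in all 7 hosts with 5 or more Batf-positive cells (A7 had 3). Any of *Jun*, *Junb* and *Jund* was detected in 64 of the 104 (61.5%) and in 255 of the 533 Batf-negative cells (47.8%). In 40 cells *Batf* was counted with none of them, which does not show that none was expressed. The median depth was 879951 counts in Batf-positive and 774459 in Batf-negative cells. *Jund* was in 10 of the 104 Batf-positive cells (9.62%) and 71 of the 533 others (13.3%). *Jun* was in 5 of 104 and 6 of 533. *Batf*, *Junb* and *Myc* were all counted in 42 cells, and *Irf4* as well in 13 of these.

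Of the 637 cells, 256 had a count of none of the 8 members, 268 of 1, 95 of 2, 15 of 3 and 3 of 4. The Myc-positive share was 16.8% of the cells with none, 28.4% with 1, 45.3% with 2 and 80.0% with 3, and all 3 cells with 4 members were Myc-positive. These shares pool the hosts and include the *Batf* and *Junb* cells described above. The median was 890495 counts and 4329 genes in Myc-positive cells, and 751578 counts and 3800 genes in Myc-negative cells. The part of depth in these shares was not tested. No cell had both *Batf* and *Batf3*. With *Batf3* in only 7 cells and *Batf* in 16.3% of all cells, this cannot show whether the 2 genes exclude each other.

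Across cells the Spearman correlation of CPM with *Myc* was 0.359 for *Batf* and 0.194 for *Junb*, and with *Irf4* 0.257 and 0.112 (n = 637 cells, which share hosts, plates and depth). For the other 6 members it lay between −0.04 and 0.082. Among 10617 genes counted in at least 10% of cells, those most like *Batf* were *Arid5a* (0.406), *Myc* (0.359) and *Ly75* (0.337). Those most like *Junb* were *Nfkbia* (0.258), *Cd83* (0.249), a surface marker of LZ cells, and *Egr1* (0.234), an immediate early gene. The gene most like *Jun*, which had counts in only 11 cells, was *Tnfaip3* (0.243), a target and inhibitor of NF-κB. For *Jund*, *Atf3*, *Fosl2*, *Fosb* and *Batf3* the nearest genes were at 0.205 or less. Such weak values in sparse counts, that of *Jun* included, are given as a description only.

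Cells were also divided by cycle phase, called from S and G2/M genes that include no member, into 248 in G1, 241 in S and 148 in G2/M. *Batf* was detected in 14.9% of G1, 15.4% of S and 20.3% of G2/M cells, and *Junb* in 43.1%, 41.5% and 38.5%. For *Batf* the share in S and G2/M minus that in G1 was 2.04 points ± 13.5 (exact sign-flip p = 0.742, n = 8 hosts) and for *Junb* −3.64 ± 12.6 (exact sign-flip p = 0.43, n = 8 hosts). Without A12 the *Junb* difference was −7.03 points and without A11 it was −1.03. Host A10 stood apart, with *Batf* in 10 of 32 S and G2/M cells and 0 of 20 G1 cells, and without it the *Batf* difference was −2.14 points.

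The levels in cycling and G1 cells differed without passing the test. The level of *Junb* in S and G2/M against G1 cells was 180 against 361 CPM in A7, 159 against 217 in A8, 227 against 177 in A10 and 167 against 400 in A11. It was 163 against 142 in A12, 199 against 219 in V5, 162 against 245 in V7 and 169 against 316 in V9. It was the lower value in 6 of 8 hosts, all but A10 and A12. The log2 fold change was −0.51 ± 0.20 (SE, 95% interval −0.94 to −0.08, n = 8 hosts, edgeR adjusted p = 0.256), and DESeq2 called it (adjusted p = 0.0293). The test called 464 of 12647 genes (3.67%), with a median of 0.14 over all genes. In the same fit 8 of 12 B cell markers passed, all lower in cycling cells, and 5 of 6 proliferation markers passed, all higher. Of the proliferation markers, *Mki67*, *Top2a*, *Mcm5* and *Pcna* are in the gene lists that called the phases, so their rise was built into the split. *Batf* was lower in 7 of 8 hosts, and its log2 fold change was −1.34 ± 1.34 (edgeR adjusted p = 0.781). The median depth was 687083 counts in G1 and 869386 in S and G2/M cells. With thinned cells the *Batf* value was −0.59 ± 1.65, and −0.47 ± 1.71 with the phases also called on thinned counts. It was −2.26 ± 1.76 with S cells alone and −0.82 without A8, and it passed in none of these.

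Detection by *Myc* was also counted within each phase, with all hosts together. *Batf* was detected in 24 of 52 Myc-positive and 13 of 196 Myc-negative G1 cells (46.2% and 6.63%), in 25 of 84 and 12 of 157 S cells (29.8% and 7.64%) and in 14 of 41 and 16 of 107 G2/M cells (34.1% and 15.0%). *Junb* was detected in 61.5% and 38.3% of those G1 cells, in 57.1% and 33.1% of S cells and in 46.3% and 35.5% of G2/M cells. Both genes had the higher share in Myc-positive cells in the 3 phases. Of the 4 hosts with enough G1 cells, 3 had the higher *Batf* share in Myc-positive cells. Whether the difference itself changes with phase was not tested.

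Over all cells of a host, the acalabrutinib and vehicle hosts overlapped in level and in share for each of the 8 members. *Batf* was at 40.5 ± 23.6 CPM in acalabrutinib hosts (SD, n = 5) and 58.5 ± 30.1 in vehicle hosts (SD, n = 3), with a log2 fold change of −0.56 ± 0.51 (SE, 95% interval −1.68 to 0.57). It was −0.19 without V7 and −0.91 without V5. *Junb* was at 211 ± 40.9 and 203 ± 6.59 CPM, with a log2 fold change of 0.04 ± 0.20 (95% interval −0.41 to 0.50). The 8 members had an edgeR adjusted p of 1 each. The test called 0 of 18016 genes (0%), with 616 at an unadjusted p under 0.05, and DESeq2 called 94. The shares with *Batf* and *Junb* differed by −3.26 and −0.25 points (exact permutation p = 0.536 and 0.982, 5 against 3 hosts, smallest possible 0.018). The share with *Jund* was 10.1 to 17.3% in the 5 acalabrutinib hosts and 9.86 to 12.7% in the 3 vehicle hosts, a difference of 2.62 points (exact permutation p = 0.161). In G1 cells alone it was 13.6% in A7, 11.8% in A8, 20.0% in A10, 13.5% in A11 and 13.8% in A12, against 8.33% in V5, 8.00% in V7 and 4 of 40 cells in V9. All 5 acalabrutinib hosts lay above the 3 vehicle hosts there, by 5.76 points (exact permutation p = 0.0179, the smallest possible), with *Jund* counted in 2 to 6 G1 cells of a host. This was 1 of 16 treatment tests of shares, over 4 members and 4 settings, and the only one with an unadjusted p under 0.05, and with thinned cells of all phases the *Jund* difference was −0.774 points (exact permutation p = 0.714). The test of whether the treatment effect differs with cycling state called 0 of 18102 genes (0%), with 552 at an unadjusted p under 0.05 and 442 by DESeq2, and gave 0.14 ± 0.43 for *Junb* and −0.60 ± 2.77 for *Batf* (edgeR adjusted p = 1 for both).

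**Figure D4:**
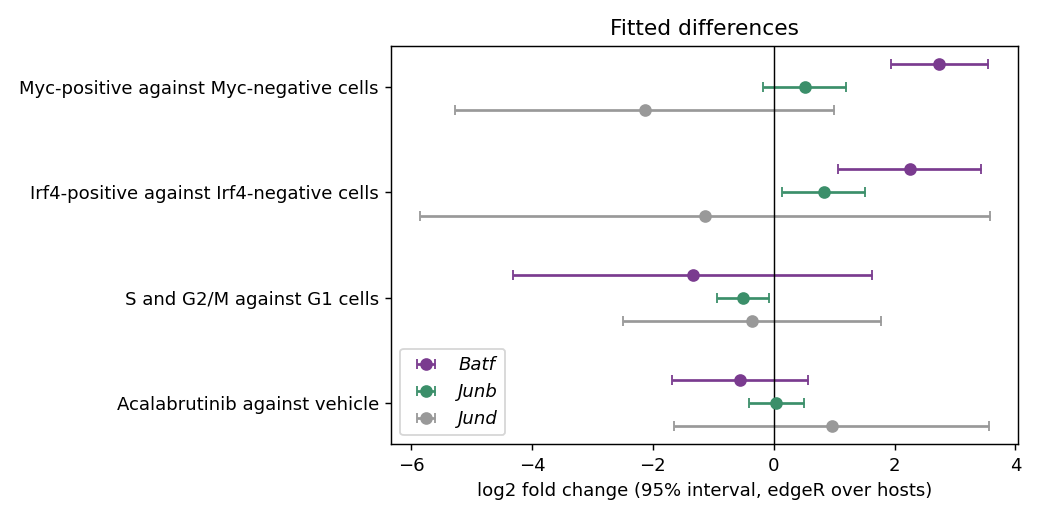
Fitted log2 fold changes of *Batf*, *Junb* and *Jund* with 95% intervals from edgeR in the 4 comparisons named on the vertical axis, with a line at 0. The interval of *Batf* lies above 0 with *Myc* (1.93 to 3.54) and with *Irf4* (1.06 to 3.44) and spans 0 for cycling state and treatment.

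The wider families were read from lists. Of 22 other AP-1 and bZIP genes, 16 were tested in the *Myc* comparison and 0 passed in either direction, with a median of −0.29 against −0.42 over all genes. The *Myc* test called 0.0551% of all genes, and the cycling test called 3.67%, with 1.16% lower. The bZIP list had 1 of 16 genes lower and none higher in cycling cells, *Bach2*, a bZIP repressor of plasma cell fate, with −0.36 ± 0.05 (edgeR adjusted p = 0.00302). Of 23 MAP kinases and their phosphatases, which act upstream of AP-1, 22 were tested and 0 passed with *Myc*, while 1 of 22, *Map3k1*, was lower in cycling cells (−0.73 ± 0.17, edgeR adjusted p = 0.049). Of 24 genes of T cell help and selection, 22 were tested with *Myc*. Of these 20 had a positive value, with a median of 0.60, and 2 passed, *Myc* itself and *Nfkbia*. Those counts and the median include *Myc*, whose positive value was fixed by the split. In cycling cells 5 of 23 passed, all lower, among them *Cd83* (−0.85 ± 0.13) and *Cd86* (−0.79 ± 0.17), a ligand for T cell costimulation. Of 16 germinal center and plasma cell regulators, 0 passed with *Myc*, and 3 of the 15 tested were lower in cycling cells.

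Genes that respond to tissue dissociation include AP-1 members, so a list of 16 such genes was read beside them. Their summed level was 2483 to 3668 CPM over hosts in Myc-positive cells (median 3197) and 2271 to 2988 in Myc-negative cells (median 2627). Genes of the list differed in direction, so the sum does not describe each of them. With all hosts together, *Hsp90ab1* (1074 against 798 CPM) and *Hspd1* (366.5 against 172.9) were higher in Myc-positive cells. *Egr1* (99.6 against 111.9 CPM) and *Btg2* (232.2 against 302.5) were lower there. Of 12 tested, 0 passed with *Myc*, with a median of 0.12. *Fos* was at 4.82 CPM in Myc-positive and 5.59 CPM in Myc-negative cells. T cell marker sums were 0 to 59.3 CPM over hosts in Myc-positive and 0.0545 to 45.5 in Myc-negative cells, and macrophage and monocyte marker sums were 0.719 to 47.6 and 30.0 to 54.4. Beside the *Irf4* results, plasma cell marker sums, with *Irf4* itself left out, were 532 to 3659 CPM over 8 hosts in Irf4-positive cells (median 1315) and 902 to 1318 CPM in Irf4-negative cells (median 1248). These hosts include A7, A8, A10 and V5, which had fewer than 5 Irf4-positive cells and did not enter the *Irf4* fit. Over all cells *Jchain* (864 CPM) and *Xbp1* (361 CPM) had the highest levels of these markers. In the *Irf4* fit all 5 plasma cell markers had positive values and 0 passed, with a median of 2.58 against −0.63 over all genes. That count and median include *Irf4*, whose positive value was fixed by the split. *Sdc1*, a surface marker of plasma cells, was at 4.42 ± 1.68 and *Prdm1*, which drives plasma cell fate, at 2.58 ± 2.61, while *Xbp1* was at 0.34 ± 0.25 and *Jchain* at 0.05 ± 0.20 (log2 fold change ± SE). The part of these genes in the *Batf* and *Junb* differences was not tested.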

How the data were processed

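Single LZ B cells were sequenced by SMART-seq2. The authors aligned reads with STARsolo 2.7.10a (per the labels) to GRCm39, counted reads overlapping a gene, introns included, and deposited 1 matrix of raw counts without normalization. Files hold columns for 637 of 685 runs. Reads were deduplicated by position without molecular identifiers, so copies can inflate counts. Binomial intervals cover counting error only, while the edgeR intervals include the spread between hosts.

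Counts were summed per host and cell state, where a host had 5 or more cells in both states, and tested in edgeR 4.0.16 (quasi-likelihood, host as block, treatment fitted across hosts) in R 4.3.3. DESeq2 1.42.0 was an alternative. Phases came from Seurat 5.3.0 (43 S and 54 G2/M genes), with 30 cells within 0.05 of the limit. Shares were tested by exact sign-flip or permutation tests over hosts in SciPy. Fits were also run on simulated counts with set dispersions. This does not show how the fits perform on sparse sums like these. Doublets were not called, as wells received single sorted cells. Named genes are the 8 members, *Myc*, *Irf4*, up to 4 called genes per list by size of change and the 3 genes most like each member. Members and lists were chosen with earlier results of these data known.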

Additional observations from a re-analysis of the deposited data

Results flagged for a closer look

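In the 5 acalabrutinib hosts, 3 values lay far from the other 4. *Jund* was at 8.59 CPM in host A7, and *Batf3* and *Fosl2* were at 11.2 and 5.71 CPM in host A10, where they came from 2 cells and 1 cell. The gap to the nearest host passed Dixon's 95% limit for each. Of 28 sets of values examined, chance alone would flag about 1 in 20 if the values were normally distributed. The *Batf3* and *Fosl2* sets include hosts at 0 CPM, so this rate does not hold for them. Level and share of the same genes were both examined, so the sets are not independent.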

How the results depend on the processing

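Of 432 refits and retests of 36 results, 350 were rated unchanged. For a count of called genes this means an equal or similar count. For a fold change or share difference it means the same direction and side of the threshold. Share differences with *Irf4* could change in direction only, since 4 hosts or fewer cannot reach the threshold. The cause of the changes in the refits and retests not rated unchanged was not tested. Where acalabrutinib was set against vehicle, DESeq2 called 94 genes in place of 0. For S and G2/M against G1 the count of 464 became 2052 with DESeq2, 252 with no filter on low counts, 297 with S cells alone, 269 with cycling cells taken by *Mki67* and *Top2a* counts, 0 in vehicle hosts only and 87 in acalabrutinib hosts only, and 295 to 360 with 1 host left out. For *Myc* the 7 calls became 1170 with DESeq2, 1 with no filter, and 0 in G1 cells, in S and G2/M cells and in vehicle hosts, where fewer hosts or cells entered, and 0 to 7 with 1 host left out. For *Irf4* DESeq2 called 1445 and for treatment by cycling state 442, each in place of 0. Host was the replicate block of these fits. With no replicate block, *Myc* gave 23 calls, *Irf4* 1 and *Jund* with *Irf4* a log2 fold change of 0.07, and *Batf* with *Myc* stayed called at 2.85 (adjusted p = 0.0103). The genotypes share host numbers, but no paired analysis was possible because cells carry no genotype.

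The *Batf* log2 fold change with *Myc* was 2.65 to 2.93 with 1 host left out. It lost its call in G1 cells (2.81), with no filter (2.67, edgeR adjusted p = 0.0704), in S and G2/M cells (2.39) and in vehicle hosts (3.14). The fits in G1 cells, in S and G2/M cells and in vehicle hosts called 0 genes, so *Myc* was not called there either. *Batf* kept its call with DESeq2, with thinned cells and with *Myc* at 10 counts or more. In G1 cells the share difference with *Myc* was 29.3 points for *Batf* and 25.3 for *Junb* without passing, since 4 hosts cannot reach the threshold. In cells of all phases, with 1 host left out, the share differences were 25.1 to 28.7 points for *Batf* and 13.1 to 19.7 for *Junb*.

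Other values, most of them near 0, changed sign. For acalabrutinib, *Junb* was −0.01 (log2) in G1 cells and −0.08 to 0.14 with 1 host left out, and *Jund* −0.30 in S and G2/M cells. For cycling state, *Jund* was 0.22 with G2/M cells alone, 1.58 in vehicle hosts and −0.87 to 0.07 with 1 host left out. *Jund* with *Irf4* was −2.38 to 0.05 with 1 host left out. For treatment by cycling state *Batf* was 1.78 with thinned cells and −1.68 to 0.46 with 1 host left out, and *Junb* −0.10 to 0.34. In share differences with *Myc*, *Jund* was 4.93 points in G1 cells and −2.27 to 0.844 with 1 host left out, and *Atf3* −0.971 with thinned cells and −0.96 at 10 counts or more. With *Irf4*, *Jund* was −0.101 at 10 counts or more and −3.93 to 10.6 with 1 host left out, and *Atf3* 1.07 with thinned cells and −2.39 to 0.72 with 1 host left out. For S and G2/M minus G1, at 10 counts or more *Batf* was −0.842, *Jund* −0.695 and *Atf3* −0.529, *Jund* was −0.906 with thinned cells, and with 1 host left out *Batf* was −2.14 to 4.55 and *Jund* −0.189 to 1.67. For acalabrutinib minus vehicle, *Junb* was 2.21 with thinned cells, 1.04 at 10 counts or more and −2.95 to 1.60 with 1 host left out, *Batf* −6.21 to 0.0833, *Jund* −0.774 with thinned cells against 2.62 in all cells and 5.76 in G1 cells (exact permutation p = 0.0179, n = 5 and 3 hosts), and *Atf3* 1.28 with thinned cells, 0.946 in G1 cells and −2.16 to 0.282 with 1 host left out. *Irf4* in G1 cells was not run, as 1 host had enough cells. Sparse detection of the 5 rarest members limits what their values can show.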
